A study of Mus musculus with 30 samples.

Results

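The 10 genes described here are the satellite cell factor Pax7, the myogenic regulatory factors Myf5, Myod1, Myog and Myf6, the fusion protein gene Mymk, the acetylcholine receptor subunits Chrna1 and Chrng, and the surface receptors Ncam1 and Megf10. They were chosen by name as genes of muscle regeneration from 43629 genes in a table of read counts, and all 10 were found by their Ensembl identifier. At least 1 read was counted for 27445 of the 43629 genes. In GENCODE M21 on GRCm38 the transcription factor genes span Pax7 at chr4:139737062-139833528 (minus strand), Myf5 at chr10:107482908-107486134 (minus strand), Myod1 at chr7:46376474-46379099 (plus strand), Myog at chr1:134289989-134292548 (plus strand) and Myf6 at chr10:107492853-107494737 (minus strand). The other members are Mymk at chr2:27061636-27072179 (minus strand), Chrna1 at chr2:73563215-73580338 (minus strand), Chrng at chr1:87204657-87212694 (plus strand), Ncam1 at chr9:49502136-49798925 (minus strand) and Megf10 at chr18:57133090-57297467 (plus strand).

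Skeletal muscle repairs itself from satellite cells, stem cells that lie against the fibre and carry Pax7. Once activated they divide as myoblasts, which express Myf5 and Myod1, and then leave the cell cycle, switch on Myog, fuse through myomaker (Mymk) into new fibres, and first build sarcomeres from embryonic and neonatal isoforms. A fibre without a nerve, new or denervated, carries the fetal acetylcholine receptor with the gamma subunit (Chrng), which is replaced by the epsilon subunit (Chrne) once the synapse matures, and a fracture injures the muscle around the bone as well as the bone itself.

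The libraries came from fracture calli of male C57BL/6J mice of 20 weeks with an open osteotomy of the right tibia, stabilised with an intramedullary nail. Lean mice were kept on a lean diet and DIO (diet-induced obese) mice on a high-fat diet until harvest. Lean mice gave calli 3, 5, 7 and 10 days after fracture (written d3 to d10) and DIO mice also 14 and 21 days after it, each diet and day with 3 mice and each library with 1 callus. Later lean calli were not analysed here. The soft tissue around the callus had been taken off at harvest, intact bone was avoided, and all groups shared the strain, the sex and the injury.

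Between 13247122 and 26365620 reads per library were counted on genes (median 16854427). Levels are given below as CPM, the counts of a gene scaled to the size of its library with edgeR's TMM factors, in the order of the first, the second and the third mouse of a group. A change was called at a Benjamini-Hochberg adjusted p under 0.05 in edgeR's quasi-likelihood test, adjusted over all genes that its low-count filter kept, and log2 fold changes are given with their standard error. Fibre RNA was present in all 30 libraries. A list of 14 genes of adult fast muscle fibres, among them Acta1 (skeletal actin) and Ckm (muscle creatine kinase), was summed. The sum ran from 596 CPM in the first DIO mouse of d21 to 39800 CPM in the second DIO mouse of d10. Each of the 14 reached 3 counts in at least 1 library of every group. Bone and cartilage genes were also present, with a mean of 27820 CPM for Col1a1 and 5940 CPM for Col2a1 over the 30 libraries. In such bulk tissue, fewer cells of a type and less RNA per cell cannot be told apart. Muscle left around the callus at harvest cannot be told apart from tissue of the callus either.

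The upstream sequences of Myog, Chrna1 and Chrng are shown because their levels ran in parallel over the libraries and because the myogenic regulatory factors bind the E-box, CANNTG, which reads as CANNTG on both strands. Each runs over the 250 bases before the gene start of RefSeq on GRCm38.p6, 5′ to 3′ in the sense of the gene, with E-boxes in capitals. GENCODE M21 places some of these starts elsewhere: the last 15 bases of the Myog window lie in its first exon, and the Chrng window lies inside the GENCODE span of the gene, with 1 of its 250 bases in an exon. Myog lies on the plus strand at chr1:134289754-134290003, Chrna1 on the minus strand at chr2:73580339-73580588 and Chrng on the plus strand at chr1:87205561-87205810.
Myog: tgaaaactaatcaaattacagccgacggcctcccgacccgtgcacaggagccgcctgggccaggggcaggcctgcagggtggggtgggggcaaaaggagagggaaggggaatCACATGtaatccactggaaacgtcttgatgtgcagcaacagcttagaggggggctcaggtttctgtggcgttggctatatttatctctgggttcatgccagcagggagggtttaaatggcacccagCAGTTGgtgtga
Chrna1: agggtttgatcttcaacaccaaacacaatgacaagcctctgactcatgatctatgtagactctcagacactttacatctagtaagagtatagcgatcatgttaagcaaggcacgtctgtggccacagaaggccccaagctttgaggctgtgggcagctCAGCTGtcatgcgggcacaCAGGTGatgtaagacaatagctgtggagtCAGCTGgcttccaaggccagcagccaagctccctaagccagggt
Chrng: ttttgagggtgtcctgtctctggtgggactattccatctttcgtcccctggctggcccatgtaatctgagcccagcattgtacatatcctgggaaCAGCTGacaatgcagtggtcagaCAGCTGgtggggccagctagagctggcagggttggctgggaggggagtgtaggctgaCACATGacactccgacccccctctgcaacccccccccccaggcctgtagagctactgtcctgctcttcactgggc
Myog had 2 E-boxes, CACATG at 138 and CAGTTG at 12 bases before the RefSeq start. Chrna1 had 3, at 92, 73 and 44 bases, and Chrng had 3, at 155, 132 and 75 bases. Both receptor genes had 2 copies of the E-box CAGCTG, which 13% of the 32851 windows of this length held at least once and 1.3% at least 2 times. At least 1 CANNTG stood in 66.2% of all windows, at least 2 in 31.8% and at least 3 in 12.2%. Pax7 and Myf5, the other 2 members for which an upstream sequence was searched and found, had 0, and the Pax7 window lies wholly in an exon of GENCODE. Megf10 was not searched. These matches describe letters in a window and no binding was measured.

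Over the days of healing, expression of most members differed. In the lean callus 8 of the 10 changed between any of the 4 days, against 19% of the 16471 genes tested, and in the DIO callus 10 of 10 changed between any of the 6 days, against 59.1% of 16995 genes. Myf5 (adjusted p = 0.227) and Megf10 (adjusted p = 0.114) were the exceptions in lean mice. Leaving out the second lean mouse of d3, the first of d5 or the second of d7 reduced the lean count to 5. Of all genes these fits called 1678, 2404 and 2353, beside 3132 with every library. As the plot of levels by day shows, Pax7, Myf5, Myod1, Myog, Mymk, Chrna1 and Chrng had their highest mean on d5 in both diets, and Ncam1 and Megf10 followed other courses.

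**Figure D1:**
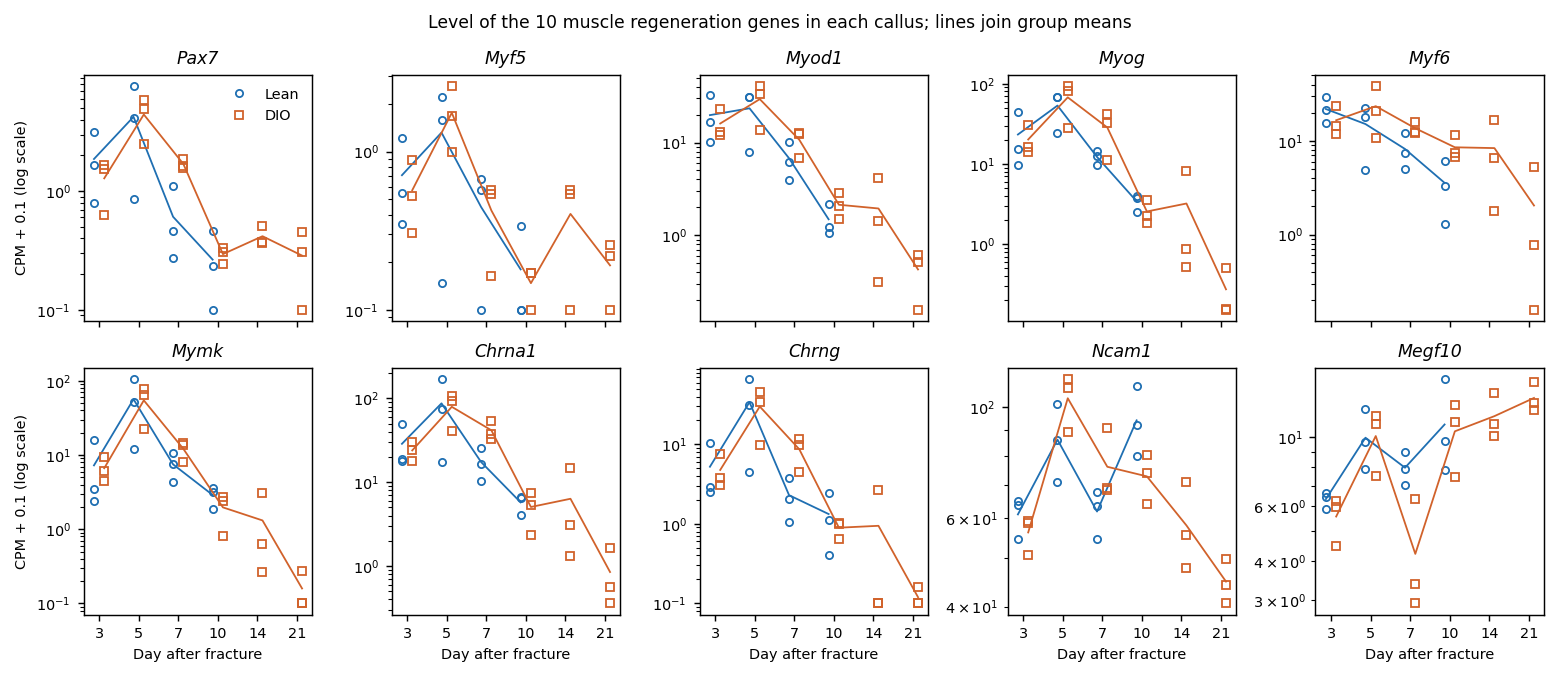
CPM of the 10 genes in each callus (circles, lean; squares, DIO) against the day after fracture, on a log axis after adding 0.1 CPM, with lines through the group means; each panel has its own range. On d10 Pax7, Myod1, Myog and Chrna1 lie below every callus of d3 of their diet, Chrng has 0 counts in 4 libraries of d14 and d21, and Ncam1 stays between 40.5 and 114 CPM.

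Pax7, the transcription factor that defines satellite cells, was a low gene, with at least 3 counts in 26 of 30 libraries. In lean calli, Pax7 was measured at 3.02, 1.58 and 0.70 CPM on d3, 7.64, 4.002 and 0.759 CPM on d5, 0.996, 0.358 and 0.172 CPM on d7, and 0, 0.134 and 0.360 CPM on d10. In DIO calli, Pax7 was at 1.44, 0.533 and 1.57 CPM on d3, 2.41, 5.79 and 4.79 CPM on d5, 1.76, 1.54 and 1.48 CPM on d7, 0.230, 0.144 and 0.210 CPM on d10, 0.275, 0.413 and 0.264 CPM on d14, and 0, 0.352 and 0.207 CPM on d21. All DIO mice of d5 lay above all DIO mice of d3, whereas the third lean mouse of d5 lay among those of d3, and every callus of d10 was below every callus of d3 of its diet. From d3 to d10, Pax7 fell by 3.31 (SE 1.08) on the log2 scale in lean mice (adjusted p = 0.0377) and by 2.54 (SE 0.67) in DIO mice (adjusted p = 0.0123). The lean call was lost without the first or the second mouse of d3, the second of d5, or the first or the second of d10 (adjusted p = 0.0512 to 0.116), and the DIO call without the second mouse of d10 (adjusted p = 0.0544). Between d10, d14 and d21 its DIO means of 0.195, 0.317 and 0.187 CPM were not called different (adjusted p = 0.664 for d14 against d10 and 0.489 for d21 against d14).

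Myf5, the earliest of the myogenic factors, was the lowest member besides Pax7 and was near the limit of detection, with a maximum of 2.51 CPM and 0 counts in 6 libraries. Its mean was 1.22 CPM (range 0.0474 to 2.12) on d5 in lean and 1.66 CPM (0.893 to 2.51) in DIO calli. On d10 its means were 0.0801 and 0.0474 CPM, the latter from 2 counts in 3 libraries. That DIO level is 11.2% of the d3 level, with a 95% interval from counting alone of 1.28% to 44.8%, and no single comparison of days was called for Myf5.

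Myod1, which commits cells to the muscle lineage, reached 3 counts in 29 of 30 libraries. In lean calli, Myod1 stood at 32.3, 16.5 and 10.2 CPM on d3, 30.9, 31.1 and 7.82 CPM on d5, 10.01, 3.88 and 6.12 CPM on d7, and 1.13, 2.08 and 0.961 CPM on d10. In DIO calli, Myod1 stood at 22.8, 11.97 and 13.01 CPM on d3, 13.4, 40.8 and 33.5 CPM on d5, 6.67, 12.7 and 12.4 CPM on d7, 2.76, 1.95 and 1.40 CPM on d10, 1.32, 4.01 and 0.211 CPM on d14, and 0.0576, 0.411 and 0.518 CPM on d21. The levels of d3 and d5 overlapped in both diets, and those of d10 lay apart below both. Myod1 fell by 3.78 (SE 0.64) on the log2 scale from d3 to d10 in lean mice (adjusted p = 0.00177), by 2.97 (SE 0.64) in DIO mice (adjusted p = 0.00383), and by 5.55 (SE 0.78) from d3 to d21 in DIO mice (adjusted p = 2.78e-05). Between d3 and d5, Myod1 had a log2 fold change of 0.28 (SE 0.54) in lean and 0.88 (SE 0.56) in DIO mice, neither of them called (adjusted p = 0.872 and 0.541).

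Myog, the factor that drives terminal differentiation, had the highest level of the 4 myogenic factors per length of transcript on d5. Its group mean was 35.6 CPM per kb in lean and 45.2 CPM per kb in DIO calli. Myf6 had 11.9 and 18.5 CPM per kb, Myod1 12.5 and 15.7, and Myf5 0.5852 and 0.7965. Pax7, which is not 1 of these 4, had 0.705 and 0.739 CPM per kb. Myf6 had the higher mean per kb on d3 and d10 in lean and on d10, d14 and d21 in DIO calli. In lean calli, Myog was at 44.4, 15.4 and 9.70 CPM on d3, 67.4, 68.2 and 24.3 CPM on d5, 14.4, 9.61 and 12.4 CPM on d7, and 2.44, 3.62 and 3.90 CPM on d10. In DIO calli, Myog was at 30.1, 15.99 and 14.04 CPM on d3, 28.2, 80.1 and 94.2 CPM on d5, 10.95, 41.6 and 32.5 CPM on d7, 2.15, 3.46 and 1.75 CPM on d10, 0.77, 8.14 and 0.423 CPM on d14, and 0.0576, 0.411 and 0.0518 CPM on d21. No lean callus of d10 reached the lowest lean callus of d7, no DIO callus of d10 reached the lowest of d7, and on d14 the second DIO mouse stood above the other 2. From d7 to d10 Myog fell by 3.52 (SE 0.80) on the log2 scale in DIO mice (adjusted p = 0.00665), and the lean change of -1.86 (SE 0.55) was not called (adjusted p = 0.0779). Whether the diet difference changed over d3 to d10 was tested in 1 model over both diets and was not called for Myog (adjusted p = 0.499).

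Myf6, also known as Mrf4 and the myogenic factor that mature fibres keep, had another course. In lean calli, Myf6 had a mean of 21.8 ± 6.83 CPM (SD, n = 3) on d3, 15.1 ± 9.13 CPM on d5, 8.11 ± 3.63 CPM on d7 and 3.47 ± 2.42 CPM on d10. In DIO calli, Myf6 had a mean of 16.5 ± 6.19 CPM on d3, 23.4 ± 14.3 CPM on d5, 13.6 ± 2.12 CPM on d7, 8.45 ± 2.66 CPM on d10, 8.29 ± 7.62 CPM on d14 and 1.95 ± 2.75 CPM on d21. The lean means had their highest value on d3 and the DIO mean was highest on d5, though the mice of d3 and d5 overlapped in both diets. It fell by 2.62 (SE 0.62) on the log2 scale from d3 to d10 in lean mice (adjusted p = 0.00949), and in DIO mice by 3.10 (SE 0.85) from d3 to d21 (adjusted p = 0.00671). The second DIO mouse of d21 kept 5.11 CPM while the other 2 had 0.0576 and 0.673 CPM. The same mouse held 19730 CPM of the adult fibre genes, against 596 and 3709 CPM in the other 2. Deviations of Myf6 from the group mean followed the adult fibre sum over the 30 libraries with a Pearson r of 0.90, the highest of the 10 members.

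Mymk encodes myomaker, a membrane protein that myoblasts need in order to fuse. In lean calli, Mymk stood at 15.8, 3.37 and 2.30 CPM on d3, 105, 52.6 and 11.95 CPM on d5, 10.4, 4.24 and 7.55 CPM on d7, and 3.51, 3.08 and 1.80 CPM on d10. In DIO calli, Mymk stood at 9.25, 6.07 and 4.36 CPM on d3, 22.6, 77.9 and 63.7 CPM on d5, 7.99, 14.6 and 13.6 CPM on d7, 2.61, 2.31 and 0.70 CPM on d10, 0.165, 2.95 and 0.528 CPM on d14, and 0, 0.176 and 0 CPM on d21. All DIO calli of d5 exceeded all others of that diet, and of the lean calli of d5 the third lay below the highest of d3. From d3 to d5 Mymk rose by 3.06 (SE 0.63) on the log2 scale in DIO mice, 8.34-fold (adjusted p = 0.0164), a call that was lost without any 1 of the 3 DIO mice of d3 or the second or the third of d5 (adjusted p = 0.0512 to 0.088). The lean log2 fold change was nearly the same at 3.03 (SE 0.81) and was not called (adjusted p = 0.117), though it was with DESeq2 (adjusted p = 0.0244). On d21 the 3 DIO libraries held 3 Mymk counts in all, which is 0.86% of the d3 level (95% interval from counting alone 0.177% to 2.53%, adjusted p of the edgeR test = 8.71e-05).

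The acetylcholine receptor of the fetal and denervated fibre is built from alpha, beta, gamma and delta subunits. For its alpha subunit gene Chrna1, lean calli had 48.9, 17.96 and 18.99 CPM on d3, 169, 75.3 and 17.2 CPM on d5, 25.4, 10.4 and 16.3 CPM on d7, and 4.01, 6.57 and 6.36 CPM on d10. For Chrna1 in DIO calli the values were 29.7, 17.96 and 23.9 CPM on d3, 40.3, 106 and 91.8 CPM on d5, 37.3, 54.4 and 33.0 CPM on d7, 2.22, 7.35 and 5.32 CPM on d10, 3.03, 14.5 and 1.22 CPM on d14, and 0.46, 1.53 and 0.259 CPM on d21. The lean and DIO calli of d10 overlapped and both lay below every callus of d3 and d7. Chrna1 fell by 2.30 (SE 0.70) on the log2 scale from d3 to d10 in lean mice (adjusted p = 0.0282), by 2.26 (SE 0.65) in DIO mice (adjusted p = 0.0201), and by 5.01 (SE 0.79) from d3 to d21 in DIO mice (adjusted p = 8.3e-05). The lean call was lost without the first mouse of d3 or any 1 of d10 (adjusted p = 0.0565 to 0.113), and the DIO call of d10 without the first mouse of d3 or the first or the third of d10 (adjusted p = 0.0564 to 0.0708). Chrna1 shares a stretch of at least 100 bases and 95% identity with 73 other genes, so that some of its reads may be uncertain.

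For the gamma subunit gene Chrng, lean calli had 10.2, 2.8 and 2.4 CPM on d3, 65.9, 31.4 and 4.36 CPM on d5, 3.69, 0.955 and 1.94 CPM on d7, and 2.38, 1.01 and 0.30 CPM on d10. For Chrng in DIO calli the values were 7.39, 3.65 and 2.97 CPM on d3, 9.82, 45.3 and 34.4 CPM on d5, 4.34, 9.85 and 11.5 CPM on d7, 0.537, 0.937 and 0.91 CPM on d10, 0, 2.54 and 0 CPM on d14, and 0, 0.0587 and 0 CPM on d21. On d14 the second DIO callus stood apart from the other 2, which had 0 counts, and on d21 the 3 DIO calli held 1 Chrng count in all. From d7 to d10 Chrng fell by 3.41 (SE 0.93) on the log2 scale in DIO mice (adjusted p = 0.0205), and this fall was not called with DESeq2 (adjusted p = 0.0554) or without any 1 of the mice of d10 (adjusted p = 0.0629 to 0.0783). The single count on d21 is 0.411% of the d3 level (95% interval from counting alone 0.0104% to 2.31%, adjusted p of the edgeR test = 0.000705).

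Set against Chrne, the subunit of the mature synapse, Chrng held most of the sum on d5 in both diets. Chrne, chosen for this comparison after its values were seen, stayed between 0 and 5.53 CPM in all libraries. Per length of transcript, Chrng made up 83.2%, 83.2% and 82.1% of both subunits in DIO calli of d5, 37.9%, 62.2% and 70.5% on d7, and 3.96%, 7.62% and 6.26% on d10. On d3 its share was 75.2%, 48.2% and 56.5% in lean and 45.8%, 36.5% and 39.9% in DIO calli. In lean calli its share was 92.7%, 87.3% and 71.4% on d5, 36.2%, 16.5% and 35.6% on d7, and 88.5%, 8.22% and 15.6% on d10. Every DIO callus of d10 lay below every DIO callus of d7, and in lean mice the first callus of d10, which was the lean callus with the least adult fibre RNA (1649 CPM), stood apart from the other 2. The lean shares rest on 108, 49 and 59 counts of both genes on d7 and on 40, 83 and 16 on d10, and those of d14 and d21 in DIO calli on 0 to 116, and exons of Chrne overlap a gene on the opposite strand.

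**Figure D2:**
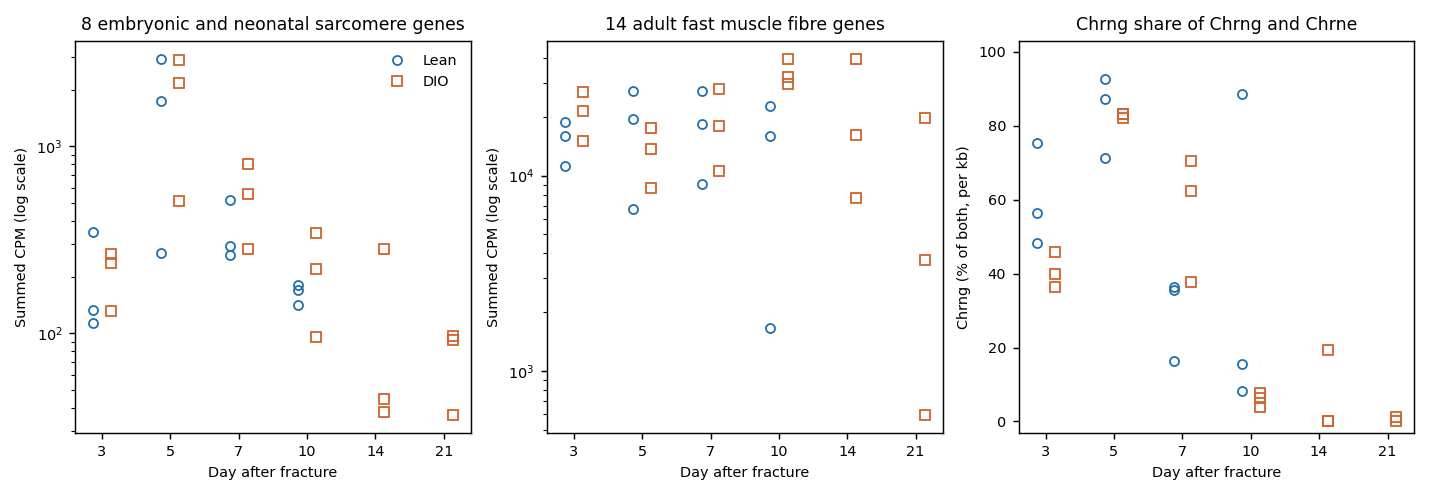
Summed CPM of 8 embryonic and neonatal sarcomere genes (left) and 14 adult fast fibre genes (middle), both on log axes, and the per-kb share of Chrng among Chrng and Chrne in percent (right), against the day after fracture; each point is 1 callus (circles, lean; squares, DIO). The embryonic sum is highest on d5, reaching 2943 CPM, while the adult sum of d5 stays within the range of d3 and d7 or below it.

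Ncam1, the neural cell adhesion molecule of myoblasts, denervated fibres, nerve and other cells, was the most even member, between 40.5 and 114 CPM in all libraries. In lean calli, Ncam1 was at 64.9, 63.6 and 54.5 CPM on d3, 102, 85.95 and 70.7 CPM on d5, 63.4, 54.5 and 67.5 CPM on d7, and 110.1, 80.0 and 92.1 CPM on d10. In DIO calli, Ncam1 was at 50.7, 58.5 and 59.3 CPM on d3, 89.3, 109 and 114 CPM on d5, 68.9, 90.8 and 68.2 CPM on d7, 73.9, 64.1 and 80.0 CPM on d10, 70.8, 47.6 and 55.5 CPM on d14, and 44.1, 49.7 and 40.5 CPM on d21. In both diets every callus of d5 exceeded every callus of d3, and so did every callus of d10. Ncam1 rose by 0.89 (SE 0.165) on the log2 scale from d3 to d5 in DIO mice, 1.85-fold (adjusted p = 0.00839, and 0.0626 without the first DIO mouse of d3). From d3 to d10 it rose by 0.66 (SE 0.165) in lean mice (adjusted p = 0.0119), and the DIO value of 0.37 (SE 0.164) was not called (adjusted p = 0.113). Its exons overlap a gene on the opposite strand over 4.8% of their length.

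Megf10 is a receptor of satellite cells that is also found in glia and phagocytic cells. Its means were higher on d5 and from d10 on than on d3. From d3 to d5 edgeR called no change of Megf10 (adjusted p = 0.241 in lean and 0.155 in DIO mice). Its means of d5 and d10 were close, at 9.87 and 10.89 CPM in lean and 9.99 and 10.35 CPM in DIO calli. In lean calli, Megf10 was at 6.35, 5.81 and 6.55 CPM on d3, 12.2, 9.56 and 7.82 CPM on d5, 8.90, 6.92 and 7.83 CPM on d7, and 9.65, 7.78 and 15.3 CPM on d10. In DIO calli, Megf10 was at 4.38, 6.15 and 5.87 CPM on d3, 7.41, 11.6 and 10.9 CPM on d5, 2.83, 6.25 and 3.29 CPM on d7, 12.6, 7.35 and 11.1 CPM on d10, 13.8, 10.97 and 9.98 CPM on d14, and 12.1, 12.8 and 14.9 CPM on d21. The calli of d7 were the low point of the DIO course, and every DIO callus from d10 on exceeded them. Megf10 rose by 1.33 (SE 0.30) on the log2 scale from d7 to d10 in DIO mice (adjusted p = 0.00559) and by 1.28 (SE 0.29) from d3 to d21 (adjusted p = 0.00162). From d3 to d10 it rose by 0.84 (SE 0.26) in lean mice (adjusted p = 0.0324) and by 0.92 (SE 0.29) in DIO mice (adjusted p = 0.0299), calls that were lost without any 1 of several mice, with adjusted p of up to 0.132 in lean and 0.108 in DIO mice.

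Between d3 and d5, the question was whether the callus gained myogenic expression in the first days. In DIO mice 2 members were called, Mymk and Ncam1, both higher, against 1.68% of all genes called and 1.39% called higher, and the median log2 fold change of the 10 was 1.74, beside 0.01 over all genes tested. All 10 had a positive fold change. In lean mice 0 members were called, against 0.449% of all genes in either direction, the median log2 change being 1.14 beside 0.02 over all genes, and 6 members had an unadjusted p under 0.05 in edgeR (14.8% of all genes), while DESeq2 called 1 (3.54% of all genes). Leaving out the first DIO mouse of d3 left 0 calls in DIO mice, and leaving out the second of d14 gave 4. Of all genes these fits called 90 and 333, beside 285 with every library.

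From d5 to d7 all 10 members had a negative fold change in both diets, with medians of -1.97 in lean and -1.36 in DIO mice, and edgeR called 0 of them. It called 0.0% of all genes in lean and 0.0177% in DIO mice for this step. An unadjusted p under 0.05 was found for 7 members in either diet, beside 5.62% of all genes in lean and 14.2% in DIO mice, and DESeq2 called 2 members in lean and 1 in DIO mice, beside 0.231% and 2.02% of all genes. Between d3 and d7, edgeR and DESeq2 called 0 members in either diet, beside 1.67% of all genes in lean and 7.3% in DIO mice in edgeR, and an unadjusted p under 0.05 was found for 2 members in lean and 1 in DIO mice (15.5% and 23.5% of all genes).

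From d7 to d10 the DIO callus lost most of this expression, with 6 members lower (Pax7, Myod1, Myog, Mymk, Chrna1 and Chrng), against 7.01% of all genes called lower, and Megf10 higher, against 6.01% (13% of all genes in either direction). Chrna1 fell by 3.06 (SE 0.67) on the log2 scale (adjusted p = 0.00493) and Pax7 by 2.99 (SE 0.67) (adjusted p = 0.00573). Leaving out the third DIO mouse of d10 gave 4 calls. In lean mice, 0 members were called by edgeR over the same days, against 2.73% of all genes, 4 had an unadjusted p under 0.05 (26% of all genes), and DESeq2 called 3 (10.9%). Compared with d3, 7 members were called in lean calli of d10, against 29.3% of all genes, with 5 lower (Pax7, Myod1, Myog, Myf6 and Chrna1; 14.1% of all genes were called lower) and Ncam1 and Megf10 higher (15.2%). The lean count was 4 without the first mouse of d3, where 3342 of all genes were called beside 4825 with every library. In DIO calli of d10, 5 were called against d3, beside 21.8% of all genes, with Pax7, Myod1, Myog and Chrna1 lower (10.8% of all genes) and Megf10 higher (11.1%), a count that fell to 3 without the first mouse of d3 or of d10 and to 2 without the third of d10.

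Late in the DIO course, no member was called between d10 and d14 (0.759% of all genes; 0 members had an unadjusted p under 0.05, and DESeq2 called 0). Between d14 and d21, Myod1, Myog, Mymk and Chrna1 were called lower, against 9.03% of all genes (19.6% in either direction), and the second DIO mouse of d14 was the highest of its group for these 4. Without that mouse of d14, or without the first or the third DIO mouse of d21, 0 were called. The adult fibre genes were also lower at this step, with -1.52 as the median log2 fold change, 2 of 14 called lower and sums of 16180, 39420 and 7673 CPM on d14 and 596, 19730 and 3709 CPM on d21, and with their sum as a covariate 0 members were called. Against d3, where 45.3% of all genes were called, 7 members were lower on d21 (21.8% of all genes) and Megf10 higher (23.5%), and these 8 calls remained in number when any 1 DIO library was left out. With the adult fibre sum as a covariate 7 of the 8 were still called, beside 31.7% of all genes, and Pax7 was not (adjusted p = 0.0904).

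Between the diets, edgeR called no member on d3, d5, d7 or d10. With the adult fibre sum as a covariate it called 4 on d5 (Myf6, Mymk, Chrna1 and Chrng, all higher in DIO calli; 5.81% of all genes), and with no filter but 1 count 3 on d7 (Myog, Chrna1 and Chrng, all higher in DIO calli; 3.04% of all genes). In the first of these fits the covariate was added after seeing the data. Without it, Mymk, Chrna1 and Chrng were lower in DIO calli of d5, with log2 fold changes of -0.047, -0.135 and -0.18, and Myf6 was higher (0.641). The sign for these 3 genes thus depended on the covariate. Of all genes edgeR called 0.0% on d3 and d10, 1.08% on d5 and 2.32% on d7. Fold changes of DIO over lean calli ran from -0.58 to -0.10 on the log2 scale on d3 (9 members tested), from -0.18 to 0.64 on d5 (10 members) and from -0.60 to 1.29 on d10 (8 members), with standard errors of 0.12 to 0.87. An unadjusted p under 0.05 was found for 0 members on d3 and d5 and 1 on d10 (7.05% of all genes), and DESeq2 called 0 on each of these days. The change of the diet difference over d3 to d10 was called for 0 of 10 members, against 1.65% of all genes, with an unadjusted p under 0.05 for Ncam1 alone (adjusted p = 0.194; 18.4% of all genes had such a p), and DESeq2 called 0.

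On d7 DIO calli had 8.56 ± 3.74 CPM (SD, n = 3) of Chrng against 2.2 ± 1.38 in lean calli, 41.6 ± 11.3 against 17.3 ± 7.55 CPM of Chrna1, and 4.13 ± 1.85 against 7.89 ± 0.99 CPM of Megf10. For each of these 3 genes the DIO values lay apart from the lean values, as they did for Pax7, Myf6 and Ncam1. Those of Mymk, Myod1 and Myog overlapped. How many of all genes lay apart in this way was not counted. The log2 fold changes were 1.96 (SE 0.51) for Chrng, 1.27 (SE 0.32) for Chrna1 and 1.23 (SE 0.41) for Myog, with adjusted p of 0.0835, 0.0777 and 0.162 in edgeR. DESeq2 called these 3 genes (adjusted p = 0.00175, 0.00258 and 0.0239), beside 5.99% of all genes, and 6 members had an unadjusted p under 0.05 in edgeR, beside 16.6%. The summed adult fibre genes overlapped on this day, at 9064 to 27070 CPM in lean and 10530 to 27950 CPM in DIO calli.

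**Figure D3:**
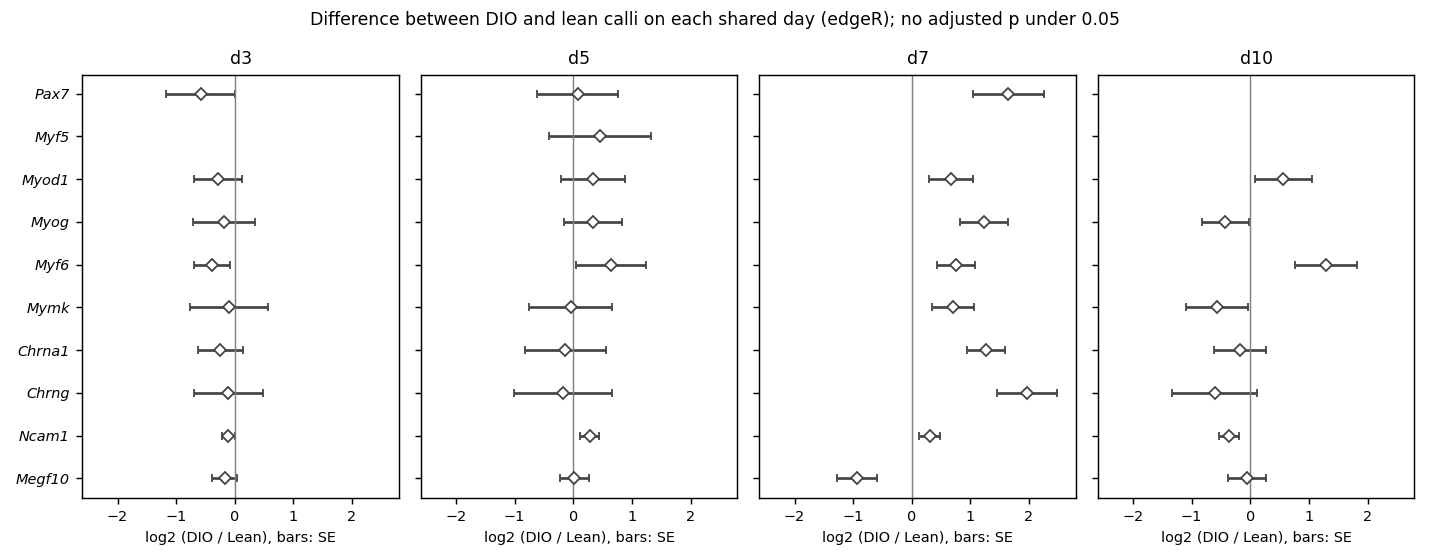
Log2 of DIO over lean level for each member on d3, d5, d7 and d10, with the standard error of the edgeR fit as bars; members that did not pass the filter on low counts on a day have no point. On d7 the points of 8 members lie right of 0 and that of Megf10 at -0.93, and no point passes an adjusted p of 0.05.

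A list of 8 sarcomere genes had its highest summed group mean on d5 in both diets. It holds Myh3, Myh8, Myl4, Actc1 and Tnnt2 with the troponins Tnni1, Tnnt1 and Tnnc1, and its sum does not measure new fibres alone. In the third DIO callus of d10 the sum was 346 CPM with Myh3 at 4.13 and Tnnt2 at 4.62 CPM. The 8 embryonic and neonatal sarcomere genes summed to 349, 114 and 132 CPM on d3, 2943, 1736 and 270 CPM on d5, 516, 261 and 294 CPM on d7, and 141, 180.5 and 171 CPM on d10 in lean calli. Sums in DIO calli were 264, 132 and 239 CPM on d3, 511, 2884 and 2173 CPM on d5, 284, 804 and 557 CPM on d7, and 95.6, 219.5 and 346 CPM on d10. The third lean mouse and the first DIO mouse of d5 were low for these genes as they were for Mymk and Chrng. From d3 to d5, 4 of the 8 rose in DIO mice (Myh3, Myh8, Myl4 and Tnnt2), beside 1.39% of all genes called higher. In lean mice 1 rose (Myh8), beside 0.449% of all genes called in either direction. The median log2 change of the list was 2.82 in DIO and 2.8 in lean mice. Myh3, the embryonic myosin heavy chain, rose by 3.99 (SE 0.84) in DIO mice (adjusted p = 0.0183), and Myh8, the neonatal one, by 6.14 (SE 1.00; adjusted p = 0.00358). From d7 to d10 the same 4 genes fell in DIO mice, beside 7.01% of all genes called lower. Between d3 and d10 the list had median log2 changes of -0.61 in lean and -0.06 in DIO mice. In lean mice 1 of the 8 was called, Myh8, which was higher, beside 29.3% of all genes in either direction. In DIO mice 1 was called, Tnnt2, which was lower, beside 21.8%. Of the 8 genes, 4 had a positive and 4 a negative change in DIO mice. The DIO mean of Myh3 was 23.15 CPM on d3 and 5.05 CPM on d10.

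Adult fibre genes did not share this course. Of the 14, 0 were called between any of the lean days by edgeR (0 with an unadjusted p under 0.05), and 4 of 14 over the DIO days, beside 19% and 59.1% of all genes. Acta1 was at 4913, 2837 and 4985 CPM on d3 and 6779, 5514 and 1690 CPM on d5 in lean calli, with the third mouse of d5 low again. Relative to 1000 CPM of adult fibre RNA, lean Myog stood at 2.79, 1.37 and 0.513 CPM on d3 and 2.50, 3.51 and 3.60 CPM on d5. It stood at 0.53, 0.523 and 1.37 CPM on d7 and 1.48, 0.159 and 0.244 CPM on d10. The first lean callus of d3 exceeded the first of d5 on this scale. The lean mean of Myod1 on this scale was 1.345 CPM on d3 and 1.302 CPM on d5. The third lean mouse of d5 stayed the lowest of its group on this scale for Mymk (3.91, 2.70 and 1.77 CPM), Chrna1 (6.27, 3.87 and 2.54 CPM) and Chrng (2.44, 1.61 and 0.646 CPM). In DIO calli the Myog ratio was 1.12, 1.06 and 0.655 on d3, 3.27, 4.54 and 6.86 on d5, 0.392, 3.95 and 1.81 on d7, and 0.067, 0.0869 and 0.0594 on d10. With the adult fibre sum as a covariate, 6 members were called higher between d3 and d5 in DIO mice (Pax7, Myog, Mymk, Chrna1, Chrng and Ncam1), beside 2.14% of all genes. Between d3 and d10 it gave 7 calls in lean mice, beside 30.5% of all genes, and 9 in DIO mice, beside 24.5%. The covariate was added after seeing the data.

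Other genes of the pathway were counted by role, from lists chosen with earlier results of these data known. Of 9 satellite cell and myoblast genes tested, 1 was called over the lean days and 7 over the DIO days, beside 19% and 59.1% of all genes. Calcr, the calcitonin receptor of quiescent satellite cells and osteoclasts, rose by 5.70 (SE 0.63) on the log2 scale from d3 to d10 in lean mice (adjusted p = 0.000184) and by 5.61 (SE 0.75) from d3 to d21 in DIO mice (adjusted p = 1.89e-05), from 0.065 to 3.53 CPM and from 0.102 to 6.06 CPM in the group means. Cdh15, the M-cadherin of satellite cells, rose by 1.42 (SE 0.20) from d7 to d10 in DIO mice (adjusted p = 0.000131), on the days on which Pax7 fell. Itga7, the laminin receptor of myoblasts and fibres, fell by 3.07 (SE 0.34) from d3 to d21 in DIO mice (adjusted p = 3.14e-06).

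Of 7 myoblast fusion genes tested, 5 were called over the lean days (19% of all genes) and 7 over the DIO days (59.1%). Mymx, which encodes myomixer, the partner of myomaker in fusion, followed Mymk, with 17.3, 14.6 and 2.94 CPM in lean and 4.73, 14.1 and 18.7 CPM in DIO calli of d5, against 0.24 to 0.877 and 0 to 1.15 CPM on d10. It fell by 2.28 (SE 0.74) on the log2 scale from d3 to d10 in lean mice (adjusted p = 0.0372) and by 3.87 (SE 0.88) from d7 to d10 in DIO mice (adjusted p = 0.00658). Boc and Jam2 moved the other way over the same DIO days, rising by 0.65 (SE 0.16) and 0.83 (SE 0.21) (adjusted p = 0.0126 and 0.0129). Boc, a co-receptor of hedgehog signalling, and Jam2, a junction protein also known from endothelium, are not restricted to muscle.

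Of the 10 acetylcholine receptor and neuromuscular junction genes, 4 were called over the lean days, beside 19% of all genes, and 7 over the DIO days, beside 59.1%. Chrnd, the delta subunit, fell by 2.59 (SE 0.67) on the log2 scale from d7 to d10 in DIO mice (adjusted p = 0.0145), and Musk, the kinase that organises the synapse, by 1.98 (SE 0.55; adjusted p = 0.0223). Lrp4 and Agrn, the agrin receptor and its ligand, which bone and cartilage also use, rose from d3 to d10 in lean mice by 1.40 (SE 0.27) and 1.24 (SE 0.18) (adjusted p = 0.00336 and 0.00093). In the same comparison Chrnb1 fell by 1.75 (SE 0.58; adjusted p = 0.0406) and Ache, acetylcholinesterase, by 1.98 (SE 0.69; adjusted p = 0.0495). In DIO mice Ache was instead higher on d21 than on d3, by 2.29 (SE 0.58; adjusted p = 0.00373), and than on d14, by 1.75 (SE 0.56; adjusted p = 0.0385). Of the 8 cofactors and sarcomere assembly genes, which include Mef2a, Mef2c and Mef2d, 0 were called over the lean days by edgeR (1 with an unadjusted p under 0.05) and 6 over the DIO days (19% and 59.1% of all genes).

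Markers of other cell types that express some of the members were measured as well. Of 9 Schwann cell and nerve genes tested, which mark cells that express Ncam1, 2 were called over the lean days (19% of all genes) and 9 over the DIO days (59.1%). Their sum ran from 58.4 to 122 CPM over the 30 libraries, with group means of 66.0 to 109 CPM. On d7, when Ncam1 was at 54.5 to 67.5 CPM in lean calli, the sum there was 94.1 to 122 CPM. Across deviations from the group means, Ncam1 and the Schwann cell sum had a Pearson r of -0.30, and the part of such cells in the Ncam1 level was not tested.

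Within groups, 8 of the members moved together from mouse to mouse. Over 30 libraries, their log2 levels correlated with a median Pearson r of 0.82 over the 28 pairs (range 0.66 to 0.98), and with a median of 0.71 (0.42 to 0.87) after the mean of each group was taken away. Megf10 had a pooled r of -0.45 to -0.02 with the 8 and Ncam1 of 0.35 to 0.65, and after removal of the group means 0.11 to 0.50 and 0.09 to 0.40. Ncam1 and Megf10 had an r of 0.65 with each other in these deviations. Points in these correlations share libraries and depth, and the r are given as descriptions.

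**Figure D4:**
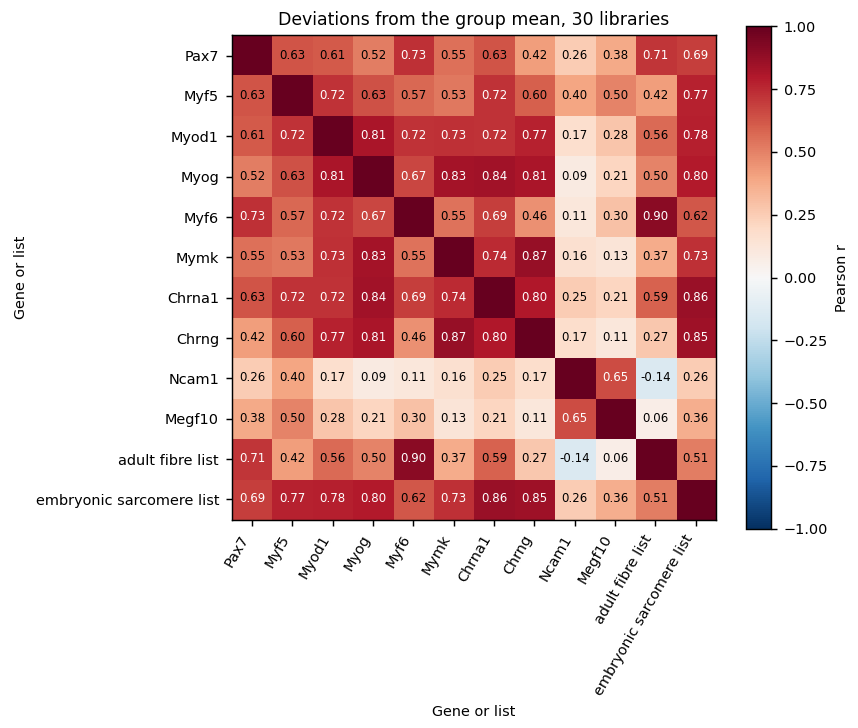
Pearson r between members, the summed adult fibre genes and the summed embryonic sarcomere genes, computed on log2 levels over 30 libraries after the mean of each group was removed (red, positive; blue, negative). Pax7 to Chrng form a block of positive values of at least 0.42, Myf6 stands out against the adult fibre sum with 0.90, and Chrng has only 0.27 with it and 0.85 with the embryonic sum.

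The genes most like a member over the 30 libraries were named from all 17357 genes that passed the filter, by Pearson r of log2 CPM. For Myog these were Chrna1 (0.98), the lincRNA Gm28653 (0.96), Myh3 (0.96), Mymk (0.96) and Myod1 (0.96), and for Chrng they were Mymk (0.96), Myh3, Gm28653, Tnnt2 and Myog (0.95). Myod1 was most like Myog (0.96), then Fgfr4, Chrnb1, Chrna1 and Chrnd (0.94 each). Bex1 (0.91), Chrnb1 (0.91), Prune2, Mamstr and Chrnd (0.87) were closest to Pax7. For Ncam1 they were Jam3 (0.82), Gpr107, Mas1, Gga2 and Sccpdh (0.80), and for Megf10 they were F2r (0.82), Gm26510, Siglec15, Atp6v1a and Caprin2 (0.79).

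Gm28653 spans 20669882 to 20684298 on the plus strand of chromosome 1 (GRCm38, GENCODE M21), and the genes of 2 microRNAs known from muscle, Mir206 and Mir133b, lie inside it on the same strand. It was at 68.6, 31.2 and 5.64 CPM in lean and 10.98, 64.1 and 34.9 CPM in DIO calli of d5, and at 0, 0.176 and 0.0518 CPM in DIO calli of d21, so that the low mice of d5 were those that were low for Mymk and Chrng. The libraries were made from polyadenylated RNA and the mature microRNAs were not measured. The arms named 3p are shown for orientation, from RefSeq on GRCm38.p6, at chr1:20679055-20679076 and chr1:20682834-20682855, with the seed (bases 2 to 8) in capitals.
mmu-miR-206-3p: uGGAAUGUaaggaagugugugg
mmu-miR-133b-3p: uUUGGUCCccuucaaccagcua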

How the data were processed

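RNA-seq libraries of 30 fracture calli were made with a stranded mRNA kit. The authors demultiplexed the reads with bcl2fastq, trimmed them with BBDuk, aligned them to GRCm38 with HISAT2 2.1.0 and counted them per gene with HTSeq, and they deposited the raw counts. Which HTSeq version, strand setting and annotation were used is not given in the sources used here.

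Symbols, positions and exon lengths came from GENCODE M21, in which 42462 of 43629 identifiers were found. Counts were scaled with TMM factors (0.779 to 1.09), kept with filterByExpr and tested with edgeR 4.0.16 in R 4.3.3, with lean days in 1 fit of 12 libraries, DIO days in 1 fit of 18, diets in a fit of the 6 libraries of each day, and the change of the diet difference over d3 to d10 in 1 fit of 24. Alternatives were DESeq2 1.42.0, RLE factors, no filter but 1 count, a filter of 0.5 CPM in 3 libraries, the replicate number as a block, all 30 libraries in 1 fit, and each library left out. The members and gene lists were chosen with earlier results of these data known. At most 4 genes of a list, those with the highest mean CPM, and any gene behind a count of 5 or fewer were to be named. Calcr, Mymx, Chrnd, Chrne and Musk fall outside the first part of that rule and were chosen after their values were seen. Per-kb levels use the summed exon length of a gene, and correlations of members use log2(CPM + 0.1).

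Replicates are different mice, and a shared replicate number pairs no mice in the labels. Deviations of same-numbered mice correlated over 0.1 in all 3 pairs in 1 of 17 comparisons, lean d7 against d5. No pair of libraries of a group was a duplicate (chi-square per degree of freedom 12.8 to 148). Near-identical stretches were searched with BLAST 2.17.0 at 100 bases and 95% identity. At 13247122 to 26365620 counts a library, genes under about 1 CPM are limited by counting error and the others by the spread of 3 mice.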

Additional observations from a re-analysis of the deposited data

How the results depend on the processing

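Counts are of members called by edgeR. With DESeq2 the count became 1 (d5 against d3), 2 (d7 against d5) and 3 (d10 against d7) in lean mice. It became 1 in DIO mice for d7 against d5 and 3 for the diets on d7. Of all genes DESeq2 called 3.54%, 0.231%, 10.9%, 2.02% and 5.99%, in this order. With no filter but 1 count it became 2 for lean d10 against d7, where 607 of 25528 genes were called. It became 4 for DIO d5 against d3 (478 of 26547 genes) and 2 for DIO d7 against d5 (271 of 26547). For the diets on d7 it became 3 (3.04% of all genes). With all 30 libraries in 1 fit, 1 member was called for lean d5 against d3 and 2 for d10 against d7. Of all 17357 genes that fit called 202 and 1529, beside 74 and 450 of 16471 in the main fit. The adult fibre sum as a covariate was chosen after seeing the data. With it, 1 member was called for lean d7 against d3 (680 of 16471 genes) and 6 for DIO d5 against d3 (451 of 16995). For DIO d7 against d5 it gave 1 (82 of 16995 genes) and for DIO d10 against d3 it gave 9 (24.5% of all genes). For DIO d21 against d14 it gave 0 and for the diets on d5 it gave 4 (5.81% of all genes). RLE factors and a filter of 0.5 CPM changed no count by over 1.5 times. The cause of these shifts was not tested.

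The replicate numbers name different mice. With the replicate number as a block, 1 member was called for lean d5 against d3, where 199 of 16471 genes were called beside 74 without the block. For lean d10 against d7 the block gave 3 members, where 1479 genes were called beside 450 without it. In lean d7 against d5, the comparison whose numbers deviated together, 0 members and 0 genes were called, as without the block.

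Leaving out each library in turn gave 5 to 8 members over the lean days, 0 to 1 for lean d10 against d7 (1 without the second lean mouse of d10), 4 to 7 for lean d10 against d3, 9 to 10 over the DIO days, 0 to 4 for DIO d5 against d3, 0 to 1 for DIO d7 against d5 (1 without the second mouse of d7), 4 to 7 for DIO d10 against d7, 0 to 5 for DIO d21 against d14, 2 to 7 for DIO d10 against d3, 8 to 8 for DIO d21 against d3 and 0 to 1 for the diets on d7 (1 without the first or the third DIO mouse). Over the lean days, these fits called 1678 to 3130 of all genes. They called 24 to 1141 for lean d10 against d7 and 2863 to 5016 for lean d10 against d3. Over the DIO days they called 8899 to 10539 genes. DIO d5 against d3 gave 90 to 354 and d7 against d5 gave 0 to 236. DIO d10 against d7 gave 1510 to 2495 and d21 against d14 gave 1285 to 4070. Against d3, DIO d10 gave 2184 to 3975 and d21 gave 6072 to 8025. The diets on d7 gave 29 to 936. The log2 change of Myod1 from d3 to d5 in lean mice, 0.28, ran from -0.04 to 0.84 and was -0.036 without the third mouse of d3 and -0.011 without the first of d5. From d10 on, low counts limit Pax7, Myf5, Mymk and Chrng.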
